A study of Oncorhynchus mykiss with 43 samples.

Results

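The cDNA clone tcbk0061.a.18, named for the homeobox protein Hox-C9, was followed in the fast muscle of 43 rainbow trout (Oncorhynchus mykiss). It is 1 of the 9023 clones on the array, and it was chosen by its name together with its rise after refeeding in these same values. Its levels and its differences between groups are therefore given as a description, without a test. The study set out to find which genes respond when muscle regrows after a fast. The fish were 1-year-old trout of a spring-spawning strain, all deprived of food for 1 month. A group of 8 fish was sampled at the end of the fast, and groups of 9, 9, 8 and 9 fish were sampled after 4, 7, 11 and 36 days of refeeding with a ration above normal. Each fish gave its own array, and no group of continuously fed fish was used, so time on food cannot be told apart from age, season and the water temperature, which fell over the experiment.

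Hox genes code for transcription factors that bind DNA through a shared domain, the homeodomain. They lie in clusters, and the order of the genes along a cluster follows the order in which they are expressed along the axis of the embryo. Hox-C9 belongs to the HoxC cluster and is known in vertebrates for setting identity in the trunk, where it is expressed from the thoracic level backwards in mouse. In mouse, muscle cells of the adult still differ in the Hox genes that they express according to where in the body they lie. The RefSeq annotation of the rainbow trout assembly USDA_OmykA_1.1 holds 8 genes with a symbol beginning with hoxc, all on chromosome 16. They are hoxc13a, hoxc12a, hoxc11a, hoxc9a, hoxc8a, hoxc6a, hoxc5a and hoxc1a, in this order. The clone's name came from its best protein match, the clone was not matched to hoxc9a here, and which copy or relative of Hox-C9 it detects is not known.

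The values are linear intensities, corrected by the authors for the amount of DNA in the spot and scaled to the median of the array, so they have no unit and levels of different clones are not compared. The median of the listed values nevertheless ran from 2.04 to 3.63 per array, and over which spots the authors took their median is not given in the sources used here. An array had values for 1441 to 2616 clones, with a median of 2200. The Hox-C9 clone had a value on all 43 arrays. Sarcomeric proteins make up the contractile apparatus of muscle. A list of 14 clones for myosin light chains, troponins, tropomyosins, nebulin and alpha skeletal actin is called sarcomeric here, by name only. Whether each of these clones codes for a protein of the sarcomere was not checked. Every one of the 14 had values in at least some fish, and 11 were measured in 5 fish or more of each group.

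Hox-C9 signal was lowest in fasted muscle and higher at each later time. In the 8 fasted fish the values were 4.38, 5.76, 5.76, 4.64, 4.29, 2.70, 4.06 and 4.44. Fish 7, at 2.70, was the lowest of all 43 fish, and the other fasted fish lay between 4.06 and 5.76. In the 9 fish refed 4 days the values were 4.71, 5.29, 3.54, 5.09, 4.87, 5.58, 6.19, 4.23 and 5.69. Only 1 of these, fish 8, was above the highest fasted fish, so these groups overlapped almost completely. In the 9 fish refed 7 days the values were 5.94, 6.65, 5.23, 5.42, 5.09, 5.66, 6.33, 6.52 and 3.94. Of these 4 were above every fasted fish, and fish 10, at 3.94, was well below the others.

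The values of the 8 fish refed 11 days were 6.22, 4.25, 6.41, 6.01, 7.57, 6.18, 7.57 and 7.67. All but fish 3, at 4.25, were above every fasted fish. The 9 fish refed 36 days had 7.65, 9.75, 8.60, 8.38, 6.57, 8.09, 5.55, 7.50 and 6.56. These included the highest signal of the experiment, in fish 3, and 8 of the 9 were above every fasted fish while fish 8, at 5.55, was below 2 of them. All 9 were above the median of the fasted fish, 4.41.

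**Figure D1:**
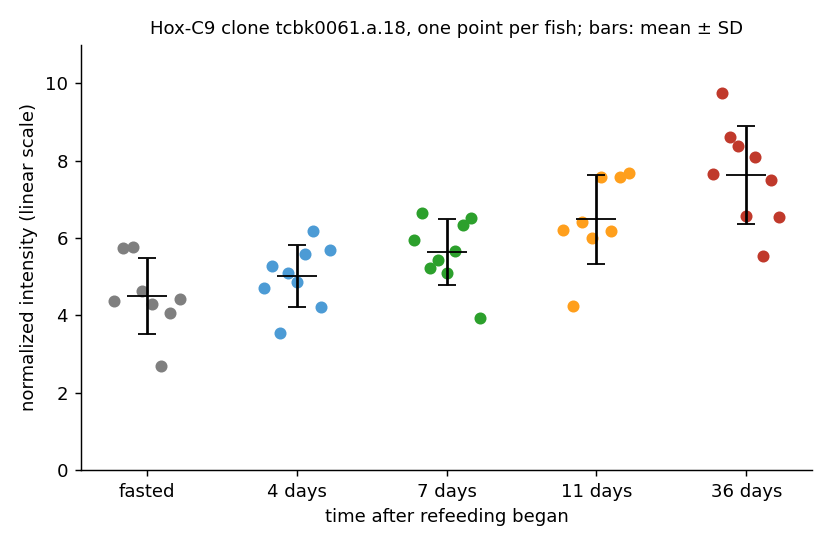
Normalized intensity of the Hox-C9 clone (linear scale, vertical axis) in each of 43 fish, by group (horizontal axis), with the mean and SD of each group in black. The points of neighbouring groups overlap, and 8 of the 9 fish refed 36 days lie above all 8 fasted fish.

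The order of the group means was fasted, 4, 7, 11 and 36 days, at 4.50 ± 0.978, 5.02 ± 0.80, 5.64 ± 0.850, 6.49 ± 1.14 and 7.63 ± 1.27 (SD, n = 8, 9, 9, 8 and 9). On the log2 scale, fish refed 4 days exceeded fasted fish by 0.17 (standard error 0.13), fish refed 7 days by 0.34 (0.13), fish refed 11 days by 0.54 (0.13) and fish refed 36 days by 0.78 (0.13). The last of these corresponds to a 1.71-fold higher signal. The SD among fish of a group was 0.27 on this scale, so the difference at 4 days was smaller than the spread among fish and those at 7, 11 and 36 days were larger. Without fasted fish 7 the differences were 0.07, 0.24, 0.44 and 0.67. The one at 7 days was then also below 0.27, an SD that still includes fish 7. In whole muscle, a higher signal per cell and a larger share of cells with the transcript cannot be told apart.

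Steps between neighbours in this order were small, and whether they differed in size was not tested. The 7-day mean exceeded the 4-day mean by 0.17 on the log2 scale (standard error 0.12), the 11-day mean exceeded the 7-day mean by 0.20 (0.13), and the 36-day mean exceeded the 11-day mean by 0.24 (0.13). All 3 steps were below the SD among fish, and the ranges of each neighbouring pair overlapped. Groups further apart differed by more than that SD. Fish refed 36 days exceeded those refed 4 days by 0.60 (0.12) and those refed 7 days by 0.43 (0.12), and fish refed 11 days exceeded those refed 4 days by 0.36 (0.13).

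Relative to the other clones, Hox-C9 moved up the order as refeeding went on. Among the 1561 clones measured in 5 fish or more of each group, which were the ones tested, its difference from fasted fish held rank 283, 182, 110 and 44 after 4, 7, 11 and 36 days, counted from the largest rise. The median difference over all these clones stayed near 0, at -0.03, -0.02, 0.01 and -0.05. The signal of the Hox-C9 clone had a correlation over 43 fish of 0.29 with the median value of the array and of -0.25 with the number of clones that the array measured (Pearson's r on log2 signal). By Spearman's rho the correlations were 0.27 and -0.32. The part of either measure in the result was not tested beyond the alternatives given at the end.

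The fish-to-fish pattern of Hox-C9 was followed closely by a small set of other clones. Likeness was measured by Pearson's r of log2 values over fish, for the 1412 other clones in the fit that shared at least 35 fish with Hox-C9. The middle of these correlations was at -0.01, and the highest 5% began at 0.68. Nevertheless 18 clones reached 0.90 or more, a limit set after the values were seen. Just inside it stood a clone at 0.903 and just outside it one at 0.898, so the limit marks no gap.

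**Figure D2:**
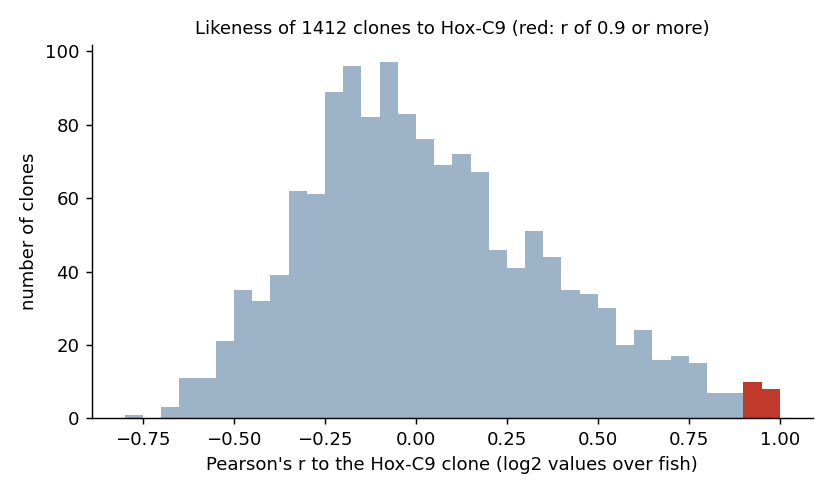
Number of clones (vertical axis) by Pearson's r of their log2 values to those of the Hox-C9 clone over at least 35 shared fish (horizontal axis), for 1412 clones. Most clones lie around 0, and the 18 clones with r of 0.90 or more form the right end in red.

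The clones most like Hox-C9 were tcay0025.h.13 (r = 0.976 over 43 fish) and tcay0022.l.14 (r = 0.972), for which no name was at hand. The third was a clone for Myosin-10 (r = 0.964), a non-muscle myosin heavy chain that works in cell shape and division, and the next 2, unnamed, stood at 0.963 and 0.960. A further 2 of the 18 had a name. A clone for protein-S-isoprenylcysteine O-methyltransferase, the enzyme that methylates the lipid-bearing end of Ras and related proteins, had r = 0.945 over 42 fish. A clone for N-acetyllactosaminide alpha-1,3-galactosyltransferase, a Golgi enzyme that adds galactose to sugar chains, had r = 0.903 over 43 fish. Outside the set, a clone for subunit 3 of the actin-branching Arp2/3 complex followed at 0.872. A name was at hand only for clones labelled in the study, so 15 of the 18 had none. The 3 named clones need not represent the set.

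Myosin-10 shows what this likeness means in values. Its group means were 5.81 ± 1.13 in fasted fish and 6.15 ± 0.865, 7.13 ± 1.12, 7.87 ± 0.911 and 9.52 ± 1.39 after 4, 7, 11 and 36 days (SD, n = 8, 9, 9, 8 and 9). Its log2 differences from fasted fish were 0.09, 0.30, 0.45 and 0.72 at these times, beside 0.17, 0.34, 0.54 and 0.78 for Hox-C9. Over the 18 clones the log2 difference ran from 0.04 to 0.26 at 4 days, from 0.17 to 0.53 at 7 days, from 0.38 to 0.58 at 11 days and from 0.61 to 0.85 at 36 days. Hox-C9 lay inside this range at every time. Since the clones were picked for following Hox-C9 over all fish, these values describe the set and do not test it.

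With the mean of each group removed, the 18 clones had r of 0.808 to 0.955 to Hox-C9, with a median of 0.887. Since they were chosen on r over all 43 fish, and much of the variation of Hox-C9 lay within groups, a high value here follows in part from the choice. Among themselves, the 18 had pairwise r of 0.794 or more over all fish, with a median of 0.924. The mean log2 value of the 11 clones of the set with a value on all arrays tracked Hox-C9 inside every group, with r of 0.987 in fasted fish (n = 8) and of 0.981, 0.960, 0.964 and 0.934 after 4, 7, 11 and 36 days (n = 9, 9, 8 and 9). The fish with the lowest Hox-C9 of its group also had the lowest mean of the set in all 5 groups. These were fish 7 of the fasted group, fish 4 at 4 days, fish 10 at 7 days, fish 3 at 11 days and fish 8 at 36 days. The fish with the highest Hox-C9 had the highest mean of the set in 2 groups, at 4 and 7 days, and not in the other 3.

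How close the likeness was is described by the value of Hox-C9 relative to these 11 clones, through its spread among fish and its change between groups. Since the clones were chosen for following Hox-C9 in these fish, the small size of both follows in part from the choice. The mean of the relative value depends on the levels of the clones, which are not compared, and says nothing on likeness. The log2 value of Hox-C9 minus the mean of the set averaged 0.01 ± 0.05 in fasted fish, and 0.05 ± 0.05, 0.02 ± 0.07, 0.05 ± 0.09 and 0.06 ± 0.09 after 4, 7, 11 and 36 days (SD, n = 8, 9, 9, 8 and 9). The difference from fasted fish on this relative scale was 0.05 at 36 days, beside 0.78 for Hox-C9 itself. The SD among fish of a group was 0.07 for the relative value, against 0.27 for Hox-C9.

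**Figure D3:**
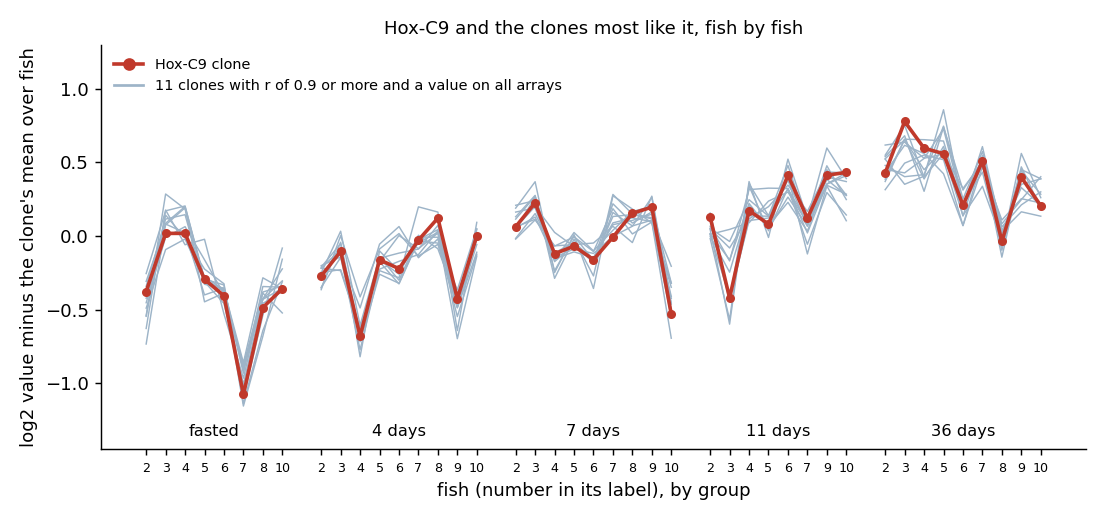
Log2 value minus the mean of the clone over 43 fish (vertical axis) for the Hox-C9 clone in red and the 11 most alike clones with a value on all arrays in grey, fish by fish within each group (horizontal axis, number of the fish in its label). Most lines dip together at fish 7 of the fasted group, fish 4 and 9 at 4 days, fish 10 at 7 days, fish 3 at 11 days and fish 8 at 36 days.

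Many clones of the set came from nearby plates of the clone collection. A clone's name gives its library, plate, row and well. Of the 18 clones, 15 came from plates 51 to 61 of the library of Hox-C9, tcbk, and the other 3 from the library tcay. Those plates supplied 107 of the 1412 clones compared. The range of plates was drawn around the clones of the set, so this share is a description only. Most clones of these plates did not follow Hox-C9, and their median r was 0.14. The clone of the well next to Hox-C9, well 19 of row a on plate 61, was in the set (r = 0.940 over all fish and 0.878 with the group means removed). Its level averaged 4.80 ± 0.606 in fish refed 36 days (SD, n = 9) and 3.02 ± 0.778 in fasted fish (n = 8). Of the 6 other clones of plate 61 that could be compared, this one was highest and the next stood at 0.590.

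Only clones with names of the form used for tcbk and tcay could be paired by well. The comparison held 18 such pairs from next wells, over all plates with names of that form. Their median r was 0.620, from -0.20 to 0.944, and 5 pairs reached 0.90. Of these 5 pairs, 4 consisted of clones of the set (the pair with Hox-C9 included), and the other came from a plate of the tcay library. Among the 14 pairs outside the set the median was 0.398. Clones of the set were picked for following Hox-C9, so a high r among them follows in part from the choice. Pairs from wells apart outside the set were not computed for comparison. Where clones stood on the arrays and which sequences they hold were not given in the sources used here, and the part of either in the shared pattern was not tested.

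Beyond the clones in the fit, 1146 clones with values in too few fish shared at least 10 fish with Hox-C9, and their median r was 0.02. Of these, 5 reached 0.90, over 15 to 27 fish each. In the same row of the same plate as a clone of the set stood 3 of the 5. How many of the 1146 stood in such a row was not counted, so this is a description only. Another of the 5 was the clone for CREB1, a transcription factor that responds to cyclic AMP. This clone, tcbk0060.j.05, also came from the plates 51 to 61 of the tcbk library. Its r was 0.942 over the 19 fish in which it was measured, which were 4 fasted fish and 7, 3, 3 and 2 fish after 4, 7, 11 and 36 days. In the fasted fish CREB1 had values of 14.7, 20.8, 11.9 and 15.3 (fish 2, 4, 8 and 10), and in the fish refed 36 days 25.7 and 20.3 (fish 2 and 8). It was measured in too few fish to enter the fit, and no test was made of it. A clone from the same plate row as Hox-C9, named for low-density lipoprotein receptor-related protein 2, an endocytic receptor, had r = 0.873 over 13 fish.

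At the other end, the 2 clones least like Hox-C9 were 1RT41J18_D_E09 (r = -0.76 over 42 fish) and tcay0024.i.23 (r = -0.66 over 43 fish), both without a name. Their log2 differences between fish refed 36 days and fasted fish were -1.31 and -0.94. With the group means removed their r was -0.48 and -0.25.

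Hox-C9 was set beside 19 other regulators of transcription and chromatin that the study names as induced in recovering muscle, a list chosen on these samples. For 6 of them (Hox-B1, Lhx8, SOX-8, MTF1, PU.1 and DNMT1) no array listed a value above 0, and the 2 zeros listed for SOX-8 were taken as missing. A further 9 had values in too few fish of some group for the fit, and 4 were tested. Among the homeodomain proteins of the list, Hox-B1 and Lhx8 thus had no value in the deposited data, although the study names both as induced. The third, Homeodomain-only protein, is a small relative without DNA binding known from heart muscle in mouse. It was measured in 2 fasted fish, at 0.384 and 0.569, and in 6 fish at 4 days (0.423 to 0.563), 8 fish at 7 days (0.492 to 0.753), 8 fish at 11 days (0.495 to 0.933) and 8 fish at 36 days (0.597 to 0.879). Its r to Hox-C9 was 0.699 over these 32 fish. Among the other regulators not tested, CREB1 had r = 0.942 over 19 fish, as given above. The rest were lower, with ATF4 at 0.141 (37 fish), MEF2A at 0.200 (33), LYAR at 0.266 (29) and AATF at 0.189 (25). SF-1, mitochondrial transcription factor A and DNMT2 had values in too few fish for an r.

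The tested regulators were LMO4, SOX-11, CREB3 and SmyD1. They were compared with fasted fish by limma's moderated test, and a clone was called where its p, adjusted by Benjamini and Hochberg over all 1561 clones, was under 0.0001. Over all clones, the share called higher was 2.43%, 3.27%, 5.00% and 5.38% after 4, 7, 11 and 36 days. Called lower at these times were 12, 17, 25 and 66 of the 1561 clones. Of the 4 regulators none was called in either direction at 4, 7 or 11 days, and 1, LMO4, was called higher at 36 days. At an adjusted p under 0.05, 0, 2, 3 and 2 of the 4 were higher at these times and none was lower. Of all clones, 7.43%, 12.4%, 16.5% and 14.6% were called higher at that threshold. Called in either direction there were 179, 312, 415 and 580 clones, of which 116, 194, 257 and 228 were higher. The median log2 difference of the 4 was 0.21, 0.29, 0.45 and 0.33, beside medians of -0.03, -0.02, 0.01 and -0.05 over all clones. The study had picked these regulators as induced in these same fish. Their counts, differences and p-values, here and below, therefore describe the list and do not test it.

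LMO4, a LIM-domain cofactor of transcription factors, had the highest r to Hox-C9 among these 4. In the 9 fish refed 36 days its values ran from 0.930 over a median of 1.13 to 1.63, against 0.628, 0.782 and 0.962 for the lowest, median and highest of the 8 fasted fish. These ranges overlapped only slightly. The log2 difference was 0.49 (standard error 0.10, adjusted p = 6.05e-05 by limma). It rested in part on fish 3, the fish with the highest Hox-C9, and without that fish the difference was 0.42 (adjusted p = 0.000186), no longer called. At 4, 7 and 11 days LMO4 differed from fasted fish by 0.21, 0.23 and 0.42, with adjusted p of 0.176, 0.0748 and 0.000956 by limma. Its r to Hox-C9 was 0.731 over 43 fish and 0.489 with the group means removed, and within single groups it ran from -0.06 at 11 days to 0.759 at 36 days.

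SOX-11, a transcription factor of developing tissues, differed from fasted fish by 0.25, 0.48, 0.65 and 0.56 on the log2 scale at 4, 7, 11 and 36 days, with adjusted p of 0.251, 0.00485, 0.000162 and 0.000570 by limma, so it missed the call at each time. Its values at 11 days ran from 19.4 to 31.1 with a median of 27.1, against 12.98 to 24.3 with a median of 15.1 in fasted fish. Its r to Hox-C9 was 0.520 over 43 fish. CREB3, a membrane-bound factor of the cyclic AMP-responsive family, differed by 0.22, 0.35, 0.48 and 0.16, with adjusted p of 0.261, 0.0257, 0.00175 and 0.263 by limma. Its r to Hox-C9 was 0.306. SmyD1, a methyltransferase needed for assembly of sarcomeres, differed by -0.09, 0.13, 0.30 and 0.03, with adjusted p of 0.742, 0.473, 0.0826 and 0.858 by limma, and its r to Hox-C9 was 0.141 over 41 fish. Whether the courses of these clones differ from that of Hox-C9 was not tested.

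At an adjusted p under 0.0001 by limma, the sarcomeric clones were called higher in part, from 7 days on. They were named from labels in the study's figures of genes that it had selected as changed in these same fish. The counts given here therefore describe the list and do not test it. The number was 0, 4, 7 and 5 of the 11 tested after 4, 7, 11 and 36 days, and none was called lower. Of all 1561 clones, 2.43%, 3.27%, 5.00% and 5.38% were called higher at these times, and 12, 17, 25 and 66 clones lower. At an adjusted p under 0.05 by limma, 1, 10, 11 and 9 of the 11 were higher and none was lower. Of all clones, 7.43%, 12.4%, 16.5% and 14.6% were higher at that threshold. Both clones of myosin light polypeptide 6 were among those called under 0.0001 at 11 and 36 days, and clone 2 also at 7 days. Whether this light chain belongs to the sarcomere was not checked, so the counts and medians of the list rest in part on these clones. The median log2 difference of the 11 clones from fasted fish was 0.28, 0.59, 0.63 and 0.70 after 4, 7, 11 and 36 days, beside 0.17, 0.34, 0.54 and 0.78 for Hox-C9. At 36 days the 11 differences ran from 0.22 to 1.19, on both sides of that of Hox-C9. Alpha skeletal actin was not tested, with values in 3 fish at 7 days and in 0 at 11 days. Its values ran from 6.85 to 12.99 in 8 fasted fish and from 13.25 to 17.06 in 9 fish refed 4 days. Tropomyosin 1 alpha, also not tested, averaged 2.32 in 2 fasted fish and 2.04 in 7 fish refed 4 days. Clone 2 of myosin regulatory light chain 2 had no value in fasted fish. Cardiac-type myosin light chain 1, a light chain of the myosin motor, was the sarcomeric clone most like Hox-C9 (r = 0.740 over 42 fish, 0.520 with the group means removed). Troponin T, which anchors the calcium switch of the thin filament to tropomyosin, had r = 0.399 over all fish and 0.03 with the group means removed.

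**Figure D4:**
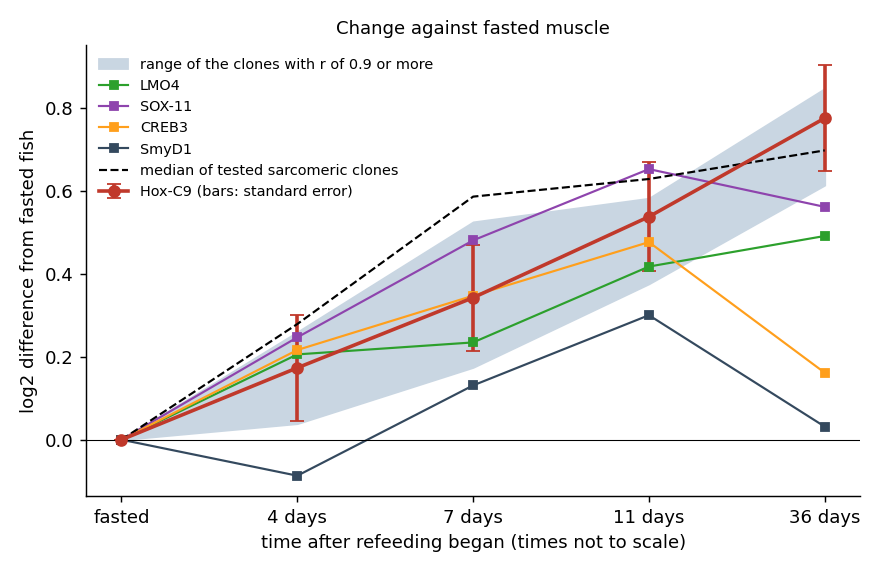
Log2 difference from fasted fish (vertical axis) by time after refeeding (horizontal axis, times not to scale) for Hox-C9 with its standard error, for the 4 tested regulators, for the median of 11 tested sarcomeric clones (dashed) and for the range of the 18 clones most like Hox-C9 (shaded). Hox-C9 lies inside the shaded range at each time and reaches 0.78 at 36 days, where LMO4 reaches 0.49, SOX-11 0.56, CREB3 0.16 and SmyD1 0.03.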

How the data were processed

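Muscle RNA of 43 trout was hybridised as radioactively labelled cDNA to nylon arrays, 1 fish per array. The authors quantified spots, excluded those with an oligonucleotide signal below 3 times background, divided by the vector oligonucleotide signal and scaled to the array median. The deposited values are linear intensities. Of 9216 rows, 193 controls were left out. Empty cells and zeros were taken as missing.

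The 1561 clones measured in 5 fish or more of each group entered a linear model of log2 values with group as the factor (limma 3.58.1 under R 4.3.3), and p-values were adjusted by Benjamini and Hochberg within each comparison. The script was tested on simulated data. Correlations were computed in pandas 2.3.3 (Python 3.11.15). The clone, the lists and the tests were chosen with earlier results of these data known. Named clones were Hox-C9, the 5 clones most and the 2 least like it (at most 2 unnamed at either end) and the regulators that the study's text names. Names came from the clone labels printed in the study. Named clones outside this rule (the other 2 named clones of the set of 18, the Arp2/3 subunit, cardiac-type myosin light chain 1, troponin T, low-density lipoprotein receptor-related protein 2) were chosen after their values were seen. Alternatives varied the normalization, the filter, the threshold, the test, array weights, covariates and the fish included. The number of arrays limits the precision.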

Additional observations from a re-analysis of the deposited data

Results flagged for a closer look

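Dixon's limit for the gap between the most extreme fish and its neighbour is passed by chance in about 1 of 20 independent checks. The checks made here were not independent. The 6 clones were measured in the same fish, and Myosin-10, among them, was picked for following Hox-C9. In 3 of 30 groups checked (6 clones in 5 groups, on the log2 scale), the most extreme fish lay further from its neighbour than that limit allows. For Hox-C9 these were fasted fish 7, at 2.70, and fish 3 of the group refed 11 days, at 4.25. On the linear scale neither passed the limit. For LMO4 it was fish 3 of the group refed 36 days, at 1.63. Without both Hox-C9 fish, the log2 difference of Hox-C9 from fasted fish was 0.07, 0.24, 0.52 and 0.67 after 4, 7, 11 and 36 days. This alternative, and the one without LMO4's fish, were chosen after seeing the data.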

How the results depend on the processing

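The 4 differences of Hox-C9 from fasted fish kept their sign and moved by less than the SD among fish under all alternatives, among them quantile normalization, centring on other clones, array weights and single fish left out. That SD, 0.27, is larger than the whole difference at 4 days, 0.17, so it is a loose limit there. Some alternatives, such as a fit to only the 2 groups compared, leave the difference unchanged by construction. Over all alternatives the log2 difference ran from 0.07 to 0.23 at 4 days, from 0.24 to 0.43 at 7 days, from 0.44 to 0.62 at 11 days and from 0.66 to 0.83 at 36 days. With 1 fish left out at a time, the ranges were 0.07 to 0.23, 0.24 to 0.41, 0.44 to 0.62 and 0.67 to 0.83.

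Counts of called clones moved more. The fit called 50, 68, 103 and 150 clones at 4, 7, 11 and 36 days. An adjusted p under 0.05 gave 179, 312, 415 and 580 clones, and a 2-class SAM with 100 permutations at a false discovery rate of 0.01% gave 98, 165, 202 and 252. With only clones valued on all 43 arrays the counts were 21, 33, 49 and 76. At least 2 fish in each group compared gave 39, 48 and 71 at 7, 11 and 36 days. Quantile normalization gave 16, 37 and 56 at 4, 11 and 36 days, and omission of the 5 arrays that listed fewest values gave 27 and 99 at 4 and 36 days. Other alternatives stayed within 1.5 times. Some settings use fewer clones or fish, and the causes were not tested.

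The call of LMO4 at 36 days was lost under quantile normalization (0.33, adjusted p = 0.0744 by limma), without the 5 arrays with the fewest values (0.51, adjusted p = 0.000282) and without the 2 fish with outlying Hox-C9 (0.49, adjusted p = 0.000175). Without fish 3 of that group, SOX-11 was called at 11 and 36 days (0.65 at both, adjusted p = 3.85e-05 and 3.86e-05 by limma). SmyD1 at 36 days, at 0.03, changed sign under quantile normalization (-0.12), without the 5 arrays with the fewest values (-0.075) and with a replicate block (-0.0056). Of the 18 clones most like Hox-C9, all 18 were among the 19 with Spearman's rho of 0.90 or more, and 7 kept r of 0.90 with the group means removed.

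With a replicate block, fish of the same number were treated as paired, although they are different fish. Hox-C9 then differed from fasted fish by 0.17, 0.34, 0.53 and 0.77, and 43, 57, 70 and 118 clones were called. Over 697 clones, the deviations of same-numbered fish of different groups had a median correlation of -0.01, beside -0.0004 for fish of other numbers. Of 82 same-numbered pairs, 31 had a correlation over 0.1, and 6 of 43 fish were most like a fish of their own number. No chance level was worked out for these counts.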
